A study of Mus musculus with 8 samples.

Results

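Long intergenic noncoding RNAs (lincRNAs) are transcripts without a recognised reading frame whose genes lie apart from protein-coding genes. The genes examined here were those that the GENCODE vM1 annotation of the mouse genome (build mm9, NCBIM37) types as lincRNA, on chromosomes 1 to 19, with all annotated transcript start sites more than 2000 bases from the start of any protein-coding gene. The rule used annotation only and no measured value. It kept 548 of 1232 lincRNA genes on these chromosomes, among 34653 annotated genes in all. The 548 genes held 786 start sites, and 432 of them had 1 start site. All had more than 1 exon.

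The assay was ATAC-seq. A transposase, Tn5, enters accessible chromatin and tags the DNA there for sequencing. By their labels, the cells were stromal cells from the bone marrow of C57BL/6J mice, wild type and 6 weeks old, in 7 libraries titled ATAC1 to ATAC7 and 1 Input library, with no further genotype or treatment named. The study sorted mesenchymal stem cells, which carry Sca-1 and PDGFR-α and lack CD31, CD45 and Ter119, into 7 subpopulations, but the labels do not tie a title to a population, so libraries are called by their titles. Each title had 1 library, so no value below has a replicate and differences between libraries are differences between those libraries only.

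A gene counted as having a start-site peak in a library when the centre of a peak in that library's list lay within 1000 bases of one of its annotated start sites. The lists held between 15188 peaks (ATAC7) and 32280 (ATAC2). The shortest lists were those of ATAC7, ATAC4 and ATAC3 and the longest those of ATAC2, ATAC5 and ATAC6. Of 10 stromal marker genes, between 2 (ATAC3 and ATAC4) and 6 (ATAC2 and ATAC5) had a start-site peak. Of all protein-coding genes, 42.7% (ATAC7) to 53.3% (ATAC5) had one. The stromal genes Lepr, Prrx1 and Dcn had none in any library. Of 10 haematopoietic markers, 1 to 4 had one, and in ATAC3 alone they outnumbered the stromal ones, 3 against 2. Ptprc, the gene of CD45, was called in ATAC1, ATAC3, ATAC5 and ATAC7. Of 6 endothelial markers, 2 had one in ATAC5, Pecam1 (the gene of CD31) and Kdr, and 0 had one in the other libraries. What these marker calls mean for the results below was not tested.

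Most lincRNAs are made by RNA polymerase II from promoters like those of protein-coding genes, and are capped, spliced and polyadenylated. They are known for low and cell-type-restricted levels. A group of them serve as hosts: their introns carry small nucleolar RNAs, which guide chemical modification of ribosomal RNA, or microRNA hairpins. An open start site is a usual feature of a promoter in use, but ATAC-seq does not measure transcription.

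The start sites that carry the results are shown first, as the 300 bases from 250 before to 50 after the annotated start, read 5′ to 3′ on the gene's strand from NCBIM37. Capitals mark matches on either strand to 6 promoter motifs: the GC box GGGCGG, the CCAAT box CCAAT, the TATA box TATAAA, the ETS site CCGGAAG, the cyclic AMP response element TGACGTCA and the AP-1 site TGANTCA. A match is a match of letters and not a shown site. The first 3 are the lincRNA starts with the best mean rank over the 7 lists: 2610206C17Rik (chr7:91837900-91838199, plus strand), Gm16899 (chr1:7387833-7388132, minus strand) and C920006O11Rik (chr9:78023471-78023770, plus strand).
2610206C17Rik: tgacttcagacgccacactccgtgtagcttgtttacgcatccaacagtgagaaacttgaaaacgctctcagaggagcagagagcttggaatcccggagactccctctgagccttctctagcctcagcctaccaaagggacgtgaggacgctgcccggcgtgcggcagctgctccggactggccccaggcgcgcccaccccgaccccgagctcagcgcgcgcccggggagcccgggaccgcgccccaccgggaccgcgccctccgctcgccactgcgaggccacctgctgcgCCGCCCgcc
Gm16899: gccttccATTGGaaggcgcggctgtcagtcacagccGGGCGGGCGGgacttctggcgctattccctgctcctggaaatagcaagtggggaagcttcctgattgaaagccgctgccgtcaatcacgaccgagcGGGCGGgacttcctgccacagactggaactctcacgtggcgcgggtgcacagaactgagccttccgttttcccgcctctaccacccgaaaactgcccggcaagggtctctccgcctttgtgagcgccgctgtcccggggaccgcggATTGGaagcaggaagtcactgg
C920006O11Rik: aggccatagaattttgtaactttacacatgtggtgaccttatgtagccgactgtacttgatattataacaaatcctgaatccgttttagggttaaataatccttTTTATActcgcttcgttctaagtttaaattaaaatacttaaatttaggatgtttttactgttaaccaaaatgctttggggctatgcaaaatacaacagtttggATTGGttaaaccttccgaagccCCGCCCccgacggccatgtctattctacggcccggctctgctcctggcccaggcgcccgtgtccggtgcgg

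The start of Snhg5 (chr9:88417672-88417971, minus strand), a snoRNA host, is shown with those of 9430037G07Rik (chr9:88494305-88494604, minus strand) and 9330159M07Rik (chr9:88753642-88753941, minus strand), neighbours on chromosome 9 that also hold a SNORD50 copy and whose starts resemble it.
Snhg5: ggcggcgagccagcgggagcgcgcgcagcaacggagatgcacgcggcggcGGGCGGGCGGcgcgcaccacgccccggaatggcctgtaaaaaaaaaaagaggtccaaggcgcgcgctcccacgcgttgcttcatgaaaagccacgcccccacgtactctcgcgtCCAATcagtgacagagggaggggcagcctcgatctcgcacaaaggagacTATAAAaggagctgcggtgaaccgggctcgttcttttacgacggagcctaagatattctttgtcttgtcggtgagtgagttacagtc
9430037G07Rik: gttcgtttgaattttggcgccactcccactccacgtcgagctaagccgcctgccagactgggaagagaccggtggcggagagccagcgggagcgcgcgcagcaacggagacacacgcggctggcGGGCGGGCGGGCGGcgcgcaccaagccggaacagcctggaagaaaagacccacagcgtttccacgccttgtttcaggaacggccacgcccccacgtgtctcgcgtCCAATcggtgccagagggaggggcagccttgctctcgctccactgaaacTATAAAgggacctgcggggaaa
9330159M07Rik: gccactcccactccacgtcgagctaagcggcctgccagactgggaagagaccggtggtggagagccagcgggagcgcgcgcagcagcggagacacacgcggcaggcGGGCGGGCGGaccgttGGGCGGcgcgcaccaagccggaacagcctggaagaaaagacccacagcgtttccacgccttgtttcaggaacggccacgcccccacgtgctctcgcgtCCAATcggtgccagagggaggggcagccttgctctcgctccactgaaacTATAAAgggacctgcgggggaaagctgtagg
The windows of 9430037G07Rik and 9330159M07Rik were 95.2% identical over 291 aligned columns. The Snhg5 window was 79.9% identical to that of 9430037G07Rik over 239 columns and 77.0% identical to that of 9330159M07Rik over 243. TATAAA began at -37 from the annotated start of Snhg5 (negative is upstream), and at 28 and 19 from the annotated starts of 9430037G07Rik and 9330159M07Rik.

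The last 3 show the range of base composition and of outcome. A330023F24Rik (chr1:196802329-196802628, plus strand), the host of Mir29b-2 and Mir29c, had a CpG-rich start with a peak in all 7 libraries, Gm17721 (chr15:38314486-38314785, plus strand) a CpG-poor start with a peak in all 7, and Meg3 (chr12:110778961-110779260, plus strand), an imprinted lincRNA expressed from the maternal allele, was called in no list.
A330023F24Rik: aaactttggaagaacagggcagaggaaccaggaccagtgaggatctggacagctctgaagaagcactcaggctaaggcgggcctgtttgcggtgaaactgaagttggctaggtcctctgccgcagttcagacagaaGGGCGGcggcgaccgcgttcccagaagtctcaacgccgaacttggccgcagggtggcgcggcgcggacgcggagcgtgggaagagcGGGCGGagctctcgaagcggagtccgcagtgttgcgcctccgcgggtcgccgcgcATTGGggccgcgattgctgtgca
Gm17721: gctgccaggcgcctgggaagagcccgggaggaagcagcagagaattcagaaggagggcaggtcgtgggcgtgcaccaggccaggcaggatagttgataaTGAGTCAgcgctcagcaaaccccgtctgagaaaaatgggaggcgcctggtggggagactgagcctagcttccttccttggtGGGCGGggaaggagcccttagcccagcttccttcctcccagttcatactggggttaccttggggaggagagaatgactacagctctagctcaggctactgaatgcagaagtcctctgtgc
Meg3: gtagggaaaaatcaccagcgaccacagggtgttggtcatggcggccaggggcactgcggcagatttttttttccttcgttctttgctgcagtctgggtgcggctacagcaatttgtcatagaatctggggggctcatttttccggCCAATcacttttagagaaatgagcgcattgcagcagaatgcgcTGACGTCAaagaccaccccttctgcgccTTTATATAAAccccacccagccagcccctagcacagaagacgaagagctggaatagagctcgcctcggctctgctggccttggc
The Meg3 window held TATAAA at -30 from the start, a CCAAT box and a cyclic AMP response element, so these letters were present at a start without a call.

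A minority of lincRNA genes had a start-site peak in each library. The number was 132 of 548 in ATAC1, which is 24.1% (95% Wilson interval 20.7 to 27.8), beside 49.6% of 21418 protein-coding genes. The count was 152 in ATAC2 (27.7%, 24.2 to 31.6) beside 50.8%, and 90 in ATAC3 (16.4%, 13.6 to 19.8) beside 44.2%. ATAC3 had the fewest and ATAC5 the most. In ATAC4 it was 96 (17.5%, 14.6 to 20.9) beside 44.4%, in ATAC5 154 (28.1%, 24.5 to 32) beside 53.3%, in ATAC6 149 (27.2%, 23.6 to 31.1) beside 52.1% and in ATAC7 96 (17.5%, 14.6 to 20.9) beside 42.7%. Of all annotated genes the share was 34.3% in ATAC1, 35.2% in ATAC2, 30.3% in both ATAC3 and ATAC4, 37% in ATAC5, 36.2% in ATAC6 and 29.2% in ATAC7, so lincRNA genes lay below the share of all genes, which include the protein-coding ones, in every library. The intervals cover counting error only. Genes are not replicates, and some share a peak.

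The protein-coding share was 1.83 (ATAC2) to 2.69 (ATAC3) times the lincRNA share, and the lincRNA and protein-coding intervals did not overlap in any library. Protein-coding genes had more annotated starts, with a median of 2. Among genes with 1 start site, the lincRNA share ranged from 11.8% to 23.1% over the libraries and the protein-coding share from 26.2% to 33.8%, with the protein-coding share higher in 7 of 7. When every list was reduced to its best-ranked 15188 peaks, the length of the shortest list, the lincRNA shares drew together, to between 16.2% (ATAC3) and 19.5% (ATAC1 and ATAC5). At equal length, 107, 96, 89, 95, 107, 100 and 96 lincRNA genes had a start-site peak in ATAC1 to ATAC7, so ATAC5 and ATAC6 were still above ATAC3, ATAC4 and ATAC7 while ATAC2 was level with ATAC7. The intervals of all 7 shares overlap, from 13.4% to 19.6% in ATAC3 and from 16.4% to 23.1% in ATAC1 and ATAC5.

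**Figure D1:**
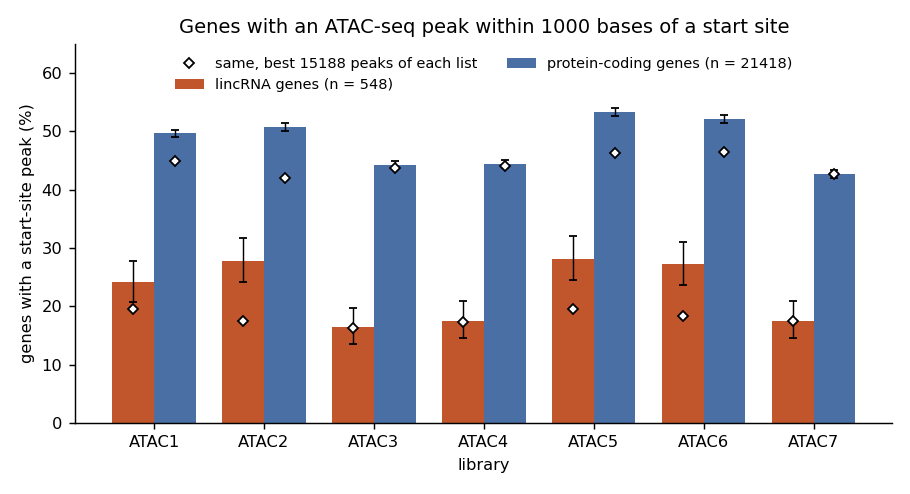
Share of genes with a start-site peak (y axis, percent) in each of the 7 libraries (x axis) for 548 lincRNA genes and 21418 protein-coding genes. Lines on the bars are 95% Wilson intervals and diamonds give the share when each list is reduced to its best 15188 peaks. The lincRNA bars span 16.4% to 28.1% and their diamonds 16.2% to 19.5%, all below the protein-coding bars.

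Over the 7 libraries together, 186 lincRNA genes (33.9%, 30.1 to 38) had a start-site peak in at least 1, against 57.4% of protein-coding genes and 40.4% of all annotated genes. Other noncoding classes at the same distance from protein-coding starts were called less often in at least 1 library, namely 11.8% of 1816 genes typed as processed transcript (10.4 to 13.3), 4.55% of 1275 miRNA genes, 4.01% of 1247 snRNA genes, 3.35% of 1283 snoRNA genes and 2.0% of 3809 pseudogenes. The annotated start of a miRNA or snoRNA gene is that of the small RNA, which can lie in an intron of a host. The shares of these classes are therefore not shares of promoters. In all 7 libraries 73 lincRNA genes had a start-site peak (13.3%, 10.7 to 16.4), against 37.4% of protein-coding genes and 25.4% of all annotated genes. Called lincRNA genes were thus less widely shared: 39.2% of the 186 were called in all 7 libraries, against 65.3% of called protein-coding genes, and 12.9% in 1 library alone, against 5.45%. In between, 20 genes had a peak in 2 libraries, 22 in 3, 19 in 4, 16 in 5 and 12 in 6. At equal list length 144 lincRNA genes were called at all, 65 of them (45.1%) in all 7, against 67.7% of called protein-coding genes, so the share in all 7 was lower for lincRNA genes at equal list length too. At a fold of at least 5 the 73 lincRNA genes became 47, and protein-coding genes in all 7 were not counted at that limit.

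**Figure D2:**
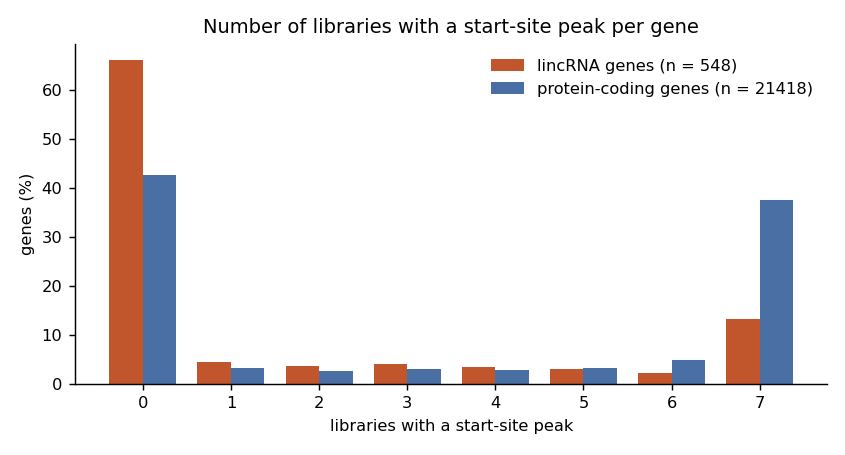
Number of libraries with a start-site peak (x axis, 0 to 7) against the share of genes (y axis, percent) for lincRNA and protein-coding genes. Both classes are heaped at 0 and 7, with 362 of 548 lincRNA genes at 0 and 73 at 7.

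Of the 113 lincRNA genes called in some but not all libraries, 61 had peaks both within the 3 longest lists and outside them. Of the 186 called genes, 48 (25.8%) had peaks only within ATAC2, ATAC5 and ATAC6, and 4 (2.15%) only within ATAC1, ATAC3, ATAC4 and ATAC7. For protein-coding genes the shares were 10.7% and 1.52%. The most common patterns after all 7 were ATAC2, ATAC5 and ATAC6 with 13 genes, ATAC1, ATAC2, ATAC5 and ATAC6 with 10, and ATAC2 alone with 9. No lincRNA gene was called in ATAC3, ATAC4 or ATAC7 alone. At equal list length, 16 of the 144 called lincRNA genes (11.1%, 6.96 to 17.3) lay only within ATAC2, ATAC5 and ATAC6 and 20 (13.9%, 9.17 to 20.5) only within the other 4, and these intervals overlap. For protein-coding genes the shares were then 5.35% and 3.29%, so the difference between these groups of libraries was smaller in both classes than with the whole lists.

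Where a lincRNA start was called, its peak stood lower in the list. The rank percentile is the place of a gene's best start-site peak in its library's list, with 0 the best and 100 the last. Its median over called lincRNA genes was 39.6, 34.5, 42.9, 46.2, 32.2, 36.6 and 48.6 in ATAC1 to ATAC7. The protein-coding medians ran from 17.8 (ATAC5) to 30.2 (ATAC7) and were the better of the pair in every library. The median number of library reads under the peak's outer region, from which the caller cut the peak, was 181.5 at lincRNA starts in ATAC1 against 381 at protein-coding starts, and 165 against 466 in ATAC6.

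The authors' fold over Input, which scales library reads to Input reads, differed much less than the ranks. In ATAC1 its median was 7.99 at lincRNA starts and 8.52 at protein-coding starts, in ATAC5 11.5 and 12.2, and in ATAC6 9.77 and 11.8. The order was the other way in ATAC2 (8.92 and 8.58), ATAC3 (6.12 and 5.81), ATAC4 (6.36 and 6.25) and ATAC7 (6.44 and 5.82). Lower reads at lincRNA starts thus came with lower Input reads, for example 30 against 55 in ATAC1. Among the 73 starts called in all 7 libraries the median fold lay between 6.25 (ATAC3) and 15.4 (ATAC5), beside 6.08 and 14.4 for the 8021 protein-coding genes called in all 7. The quartiles of the lincRNA folds in ATAC5 were 9.49 and 24.4.

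Breadth went with strength among lincRNA genes. The median over genes of their median reads per called library was 69.5 for the 66 genes called in 1 to 3 libraries, 96.5 for the 47 called in 4 to 6 and 241 for the 73 called in 7. The corresponding rank percentiles were 68.8, 54.0 and 27.6. These values come from the same lists that set the breadth and are a description.

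The strongest lincRNA start was that of Gm16899 (ENSMUSG00000086461.2, chr1:7339487-7387882, minus strand), a gene of 3 exons with 1 annotated start, 231340 bases from the nearest protein-coding start, that of Pcmtd1. It had 1866, 1687, 1036, 1100, 2201, 2241 and 1133 reads in ATAC1 to ATAC7, with 47 to 56 Input reads. Its fold over Input was 43.2, 50.3, 21.3, 22.2, 71.1, 66.6 and 26.6 in ATAC1 to ATAC7, and both its reads and its fold were the highest of all lincRNA starts in all 7 libraries. In ATAC2 it stood at rank 15 among 32280 peaks. The window printed above holds 3 GC boxes and 2 CCAAT boxes in reverse, and the peak centres lay within 128.5 bases of the start.

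The best mean rank belonged to 2610206C17Rik (ENSMUSG00000085236.2, chr7:91838150-91925059, plus strand), 10289 bases from the start of Zfand6. Its reads were 1466, 1203, 890, 885, 1589, 1826 and 849 in ATAC1 to ATAC7 against 101 to 123 Input reads, and its fold ran from 8.47 (ATAC3) to 24.3 (ATAC5). Its peak centres lay 152.5 to 380.0 bases inside the gene. C920006O11Rik (ENSMUSG00000087566.1, chr9:78023721-78026686, plus strand) had 807, 440, 542, 488, 1057, 935 and 487 reads and folds from 12.2 (ATAC7) to 41.1 (ATAC5), with peak centres at -191.5 to -170.0 bases from the start. The gene of the 7SK RNA, a small RNA polymerase III transcript that holds the elongation factor P-TEFb, has its start within 1000 bases of it on the other strand, so the opening at this lincRNA start cannot be told apart from that of 7SK.

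Snhg5 (ENSMUSG00000032424.7, chr9:88415894-88417721, minus strand) is a snoRNA host with 2 SNORD50 copies. Its reads were 1361, 892, 684, 790, 1105, 1426 and 731 in ATAC1 to ATAC7, with folds of 22.9, 21.7, 11.5, 13.8, 26.7, 34.5 and 12.8. ATAC3, ATAC4 and ATAC7 were the 3 lowest in reads and in fold at Snhg5, and these 3 were also the lowest in fold at Gm16899, 2610206C17Rik and C920006O11Rik. The median fold of all peaks was likewise lowest in these libraries, 5.77 to 6.13 against 7.89 to 10.9 in the other 4, so this order is not particular to lincRNA starts.

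A330023F24Rik (ENSMUSG00000073474.4, chr1:196802569-196864102, plus strand) and Gm16897 (ENSMUSG00000086469.1, chr1:196781953-196803153, minus strand) overlap at their 5′ ends on opposite strands. Both were called from the same peak in every library. That peak had 682, 497, 415, 476, 752, 777 and 389 reads in ATAC1 to ATAC7 and folds from 6.25 (ATAC3) to 14.2 (ATAC5). Its centre lay 87.0 to 112.0 bases from a start of A330023F24Rik and 472.0 to 497.0 bases inside Gm16897. The 2 genes therefore count as 2 of the 73 on the evidence of 1 open region.

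The other genes among the 10 best by mean rank were Gm17552, 5430416N02Rik, Gm17395 and Gm17494. Gm17552 on chromosome 19 starts inside Carns1 on the other strand and had 268 (ATAC7) to 727 (ATAC6) reads and folds of 5.36 (ATAC3) to 14.9 (ATAC6). Carns1 itself, a carnosine synthase gene, was itself called in no library. 5430416N02Rik had folds of 5.39 (ATAC3) to 15.2 (ATAC5), Gm17395 of 8.37 (ATAC3) to 27.0 (ATAC5) and Gm17494 of 6.26 (ATAC3) to 16.9 (ATAC5). Peak centres of Gm17395 lay at -704.0 to -522.0 bases from its only annotated start, farther than at the other 9. In 10 of these 10 genes the fold was lowest in ATAC3 or ATAC7 and highest in ATAC5 or ATAC6.

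**Figure D3:**
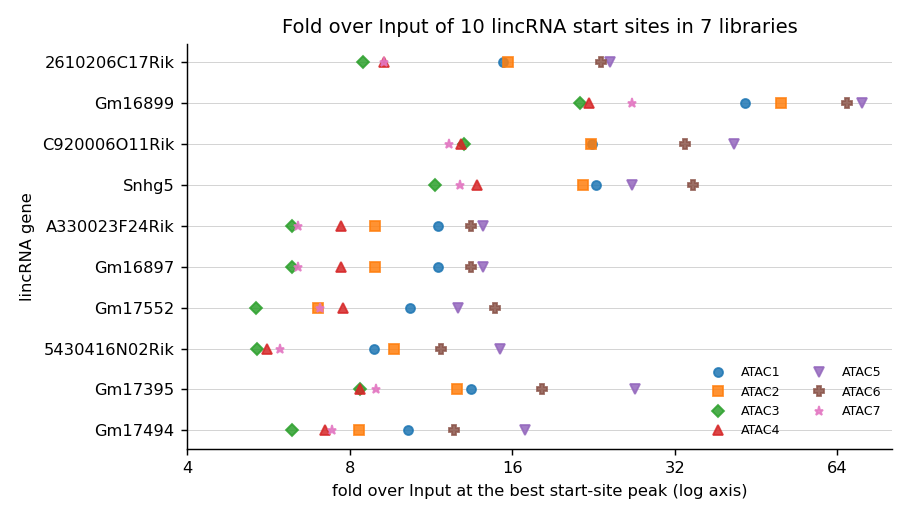
Fold over Input at the best start-site peak (x axis, log scale) of the 10 lincRNA genes with the best mean rank among those called in all 7 libraries (y axis), 1 symbol per library. The values run from 5.36 (Gm17552 in ATAC3) to 71.1 (Gm16899 in ATAC5), and ATAC5 or ATAC6 is highest in each row.

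In all, 5 pairs of lincRNA genes on opposite strands shared 1 peak in all 7 libraries. Besides A330023F24Rik and Gm16897 they were BB557941 with 4930555B11Rik on chromosome 2, Gm4211 with 9330111N05Rik on chromosome 13, 9430037G07Rik with Gm17683 and 9330159M07Rik with Gm17694, both on chromosome 9. The peak of BB557941 and 4930555B11Rik had 463, 557, 200, 166, 777, 793 and 293 reads in ATAC1 to ATAC7. Per library, 10 to 12 called lincRNA genes shared their best peak with another, so the 132 genes of ATAC1 stand for 127 peaks. Of the 45 lincRNA genes with the start of another noncoding gene within 1000 bases, 30 were called (66.7%, 52.1 to 78.6), against 156 of the 503 without (31.0%, 27.1 to 35.2).

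The chromosome 9 pairs are near copies of each other. The peak of 9430037G07Rik had 222, 167, 106, 121, 207, 278 and 108 reads in ATAC1 to ATAC7, and that of 9330159M07Rik 174, 146, 104, 148, 215, 199 and 113, with only 10 to 13 Input reads at either. Another stretch that resembles both at 94.7% to 97.0% identity lies at chr9:88961501-88961802, with no lincRNA start of the set. Reads of such sequences can be placed at the wrong copy, so the calls at these 4 genes are uncertain. In the whole set, 45 genes (8.21%) had a stretch of at least 240 bases and 90% identity elsewhere in the genome: 38 of the 362 without a call, 2 of the 66 called in 1 to 3 libraries, 0 of the 47 called in 4 to 6, and 5 of the 73 called in all 7. The fifth of these was 9430091E24Rik.

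Hosts of small nucleolar RNAs had the highest share called among the groups of lincRNA genes described here. Of 14 lincRNA genes with an annotated snoRNA inside, 12 had a start-site peak (85.7%, 60.1 to 96.0) and 9 had one in all 7 libraries, against 165 of 512 (32.2%, 28.3 to 36.4) genes with neither a snoRNA nor a microRNA inside. The 9 were Snhg5, Snhg7, 2410006H16Rik, Gm11974, 2410004N09Rik, 2700038G22Rik, 9330159M07Rik, Gm17683 and 9430037G07Rik, of which the last 3 are at the near-identical starts on chromosome 9. Snhg7 (ENSMUSG00000091299.1, chr2:26492697-26495764, minus strand) had 167, 161, 86, 87, 349, 187 and 87 reads in ATAC1 to ATAC7 and folds from 5.42 (ATAC3) to 21.3 (ATAC5). The start of Snora17 and that of another noncoding transcript, 5730588L14Rik, lie within 1000 bases of a start of Snhg7.

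Snhg12 (ENSMUSG00000086290.1, chr4:131864593-131866939, plus strand), which carries 4 snoRNAs, had 149, 105, 79, 62, 160 and 178 reads in ATAC1 to ATAC6 and no call in ATAC7. Its call in ATAC4 stood at rank 14089 of 15650, near the end of that list. Snhg4 on chromosome 18 was called in ATAC1, ATAC2, ATAC5 and ATAC6 with 103, 108, 127 and 133 reads. The uncalled snoRNA hosts were Rian and 2900076A07Rik.

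Of 23 lincRNA genes with a microRNA inside, 9 were called (39.1%, 22.2 to 59.2), an interval that spans the share of genes with neither. In all 7 libraries 7 of the 23 were called (30.4%, 15.6 to 50.9), against 11.1% (8.69 to 14.2) of genes with neither, and these intervals do not overlap. The 7 included A330023F24Rik, 1700016P03Rik with Mir132 and Mir212, and Dleu2. Dleu2 (ENSMUSG00000087313.2, chr14:62238318-62301162, minus strand), a host gene in a region often deleted in human leukaemia, had 682, 131, 388, 249, 452, 976 and 479 reads in ATAC1 to ATAC7 and folds from 5.31 (ATAC2) to 20.2 (ATAC6). It has 3 annotated starts, and its best peak lay 916.5 bases inside a start in ATAC1 but at -5.0 bases from one in ATAC2. Hosts of Mir9-2, Mir124a-1, Mir155 and Mir205, microRNAs of neural, immune or epithelial cells, were among the 14 without a call.

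Of 57 long noncoding RNAs listed as described ones, 29 were found by symbol in the annotation, 18 of them typed as lincRNA and 14 within the set, of which 8 were called, beside 33.9% of all 548 lincRNA genes and 40.4% of all annotated genes. Besides the snoRNA hosts and Dleu2, Pvt1 (chr15:61869542-62209651), 50565 bases from Myc, was called in ATAC1, ATAC2, ATAC5 and ATAC6 with 86, 82, 112 and 91 reads and folds from 4.59 to 6.39. Gm16197 (chr17:29194419-29215906), whose start lies 12018 bases from that of the cell-cycle inhibitor Cdkn1a, was called in ATAC2, ATAC5 and ATAC6 with 59, 69 and 71 reads. Airn (chr17:12934177-13052988), the imprinted transcript that starts inside Igf2r and silences it on the paternal allele, was called in ATAC2 alone with 73 reads against 8 in Input. These 3 genes were called only in longer lists and with few reads.

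Meg3, Rian and Mirg, which lie in 1 imprinted cluster on chromosome 12, were called in no library at 10, 3 and 2 annotated starts. Rmst and Sox2ot, known from neural tissue, and Miat had none either. A list holds only regions that passed the caller, so a gene without a call has no read count here, and its level cannot be set below that of a called gene. For the 362 lincRNA genes without a call, the nearest peak of any list lay at a median of 12843.5 bases, with 89 (24.6%) of the genes within 5000 bases of a peak and 38 over 100000 bases from one.

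The 24 genes called in 1 library alone had 42 to 97 reads at their peaks, with a median of 65, and folds from 2.29 to 28.8 with a median of 7.58. Their rank percentiles ran from 32.5 to 99.4, with a median of 73.0. The best ranked were Gm16575 in ATAC1 with 76 reads and fold 5.18, Gm17502 in ATAC2 with 96 reads and fold 6.06, BB218582 in ATAC5 with 62 reads and fold 21.2, and 4930520O04Rik in ATAC6 with 88 reads and fold 2.89. The high fold of BB218582 rests on 5 Input reads. The rank percentiles of these 4 were 55.7, 32.5, 52.4 and 53.6, and that of Gm17502 was better than the median of called lincRNA genes in ATAC2. Of the genes called in ATAC2, ATAC5 and ATAC6 and nowhere else, Gm16952 had 98, 132 and 119 reads, Gm16386 151, 130 and 97, and Gm17439 81, 109 and 103. RefSeq lists Gm16386 as a transcribed pseudogene and its start has a near copy elsewhere in the genome, so its calls are uncertain. Their folds ran from 5.87 (Gm16386 in ATAC6) to 23.3 (Gm17439 in ATAC5).

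Called and uncalled lincRNA starts differed in base composition. A start was called CpG-rich when the 300 bases at the gene's 5′ end had at least 50% G and C and a CpG count of at least 0.6 of that expected from its C and G. Of the 548 lincRNA genes 19% (15.9 to 22.5) had such a start, against 42.8% of protein-coding genes. The share was 8.84% among the 362 genes without a call, 16.7% in those called in 1 to 3 libraries, 34.0% in 4 to 6 and 61.6% (50.2 to 71.9) in 7. The protein-coding shares over the same steps were 9.82%, 38.4%, 57.6% and 77.1%, so the CpG-rich share was higher at each step of breadth in both classes.

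In the CpG-rich and in the CpG-poor group, lincRNA genes were called less often than protein-coding genes. The groups rest on the gene's 5′ end, whereas a call may come from any annotated start. Numbers of starts, higher in protein-coding genes, were not matched here. Of the 104 CpG-rich lincRNA starts 72 were called (69.2%, 59.8 to 77.3) and 45 in all 7 libraries (43.3%, 34.2 to 52.9), against 90.2% and 67.4% of CpG-rich protein-coding starts. Of the 444 CpG-poor ones 114 were called (25.7%, 21.8 to 29.9) and 28 in all 7 (6.31%, 4.40 to 8.96), against 32.7% and 15.0%. The lincRNA and protein-coding intervals did not overlap in any of the 4 comparisons. The CpG-rich lincRNA share ran from 49.0% (ATAC3 and ATAC7) to 63.5% (ATAC5) over the libraries, and the CpG-poor share from 8.78% (ATAC3) to 19.8% (ATAC2 and ATAC5).

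**Figure D4:**
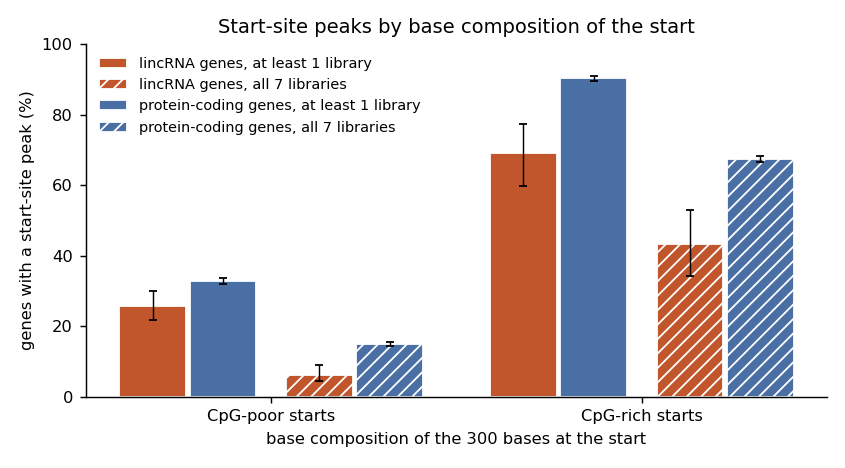
Share of genes with a start-site peak (y axis, percent) by base composition of the start, for lincRNA and protein-coding genes. Plain bars count genes called in at least 1 library, hatched bars genes called in all 7, and lines are 95% Wilson intervals; the CpG-rich lincRNA bars reach 69.2% and 43.3% and the protein-coding ones 90.2% and 67.4%.

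Among motif letters, the GC box followed the CpG content, with matches in 50 of the 73 lincRNA starts called in all 7 libraries (68.5%, 57.1 to 78.0) beside 68.8% of protein-coding starts called in all 7, and in 15.2% of the 362 without a call. CCAAT was found in 50.7% (39.5 to 61.8) of the 73 beside 41.0%, and in 36.9% of all 548. The letters TATAAA on either strand were in 14 of the 73 (19.2%, 11.8 to 29.7), beside 5.92% (5.43 to 6.46) of protein-coding starts called in all 7, 13.5% of all 548 lincRNA starts and 13.5% of all protein-coding starts. Of the 14, 4 were the near-identical starts on chromosome 9 (9430037G07Rik, Gm17683, 9330159M07Rik and Gm17694), and without these genes the share was 10 of 69 (14.5%, 8.07 to 24.7). On the gene's own strand and beginning 40 to 20 bases before the 5′ end, TATAAA was in 5 of the 73 (6.85%, 2.96 to 15.1), beside 0.711% (0.549 to 0.920) of protein-coding starts called in all 7, 2.42% of all protein-coding starts and 1.46% of all 548 lincRNA starts. The 5 were Snhg5, Snhg7, Dleu2, 1700016P03Rik and 2610035D17Rik, of which the first 4 are hosts of small RNAs.

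The AP-1 letters TGANTCA were in 11 of the 66 lincRNA starts called in 1 to 3 libraries (16.7%, 9.57 to 27.4), in 8 of the 47 called in 4 to 6 (17%, 8.89 to 30.1) and in 5 of the 73 called in 7 (6.85%, 2.96 to 15.1), beside 7.73% of those without a call and 6.93% of all protein-coding starts. The intervals of these lincRNA groups overlap. The RUNX letters TGTGGT were in 22.4% (18.4 to 26.9) of uncalled lincRNA starts and 11% (5.66 to 20.2) of those called in all 7, whose intervals overlap, beside 15.3% of all protein-coding starts and 11.1% of those called in all 7. The ETS letters were in 13.7% (7.61 to 23.4) of the 73, beside 20.8% of protein-coding starts called in all 7. A CTCF consensus was matched in 3 of the 73 (4.11%, 1.41 to 11.4), beside 1.67% of protein-coding starts called in all 7 and 0.552% of uncalled lincRNA starts. The cyclic AMP response element was also in 3 of the 73, beside 3.98% and 1.10%.

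LincRNA genes that start inside a protein-coding gene were called less often than those outside. Of the 187 lincRNA genes whose 5′ end lies inside a protein-coding gene 29 were called (15.5%, 11 to 21.4) and 7 in all 7 libraries, against 157 of the 361 outside (43.5%, 38.5 to 48.6), 66 of them in all 7. Of the 187, 173 lay on the other strand only. Distance to the nearest protein-coding start showed no order: 33.0% were called up to 5000 bases, 33.5% from there to 20000, 35.7% from there to 100000 and 30.4% beyond. The nearest protein-coding gene itself had a start-site peak in all 7 libraries for 36 of the 73 genes (49.3%) and for 158 of the 362 without a call (43.6%).

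The annotation behind a gene also moved with its calls. Of the 158 lincRNA genes annotated by HAVANA, the manual annotators, 74 were called (46.8%, 39.2 to 54.6), against 112 of the 390 annotated by ENSEMBL (28.7%, 24.5 to 33.4). Of 223 genes that RefSeq lists by the same symbol as long noncoding, 104 were called (46.6%, 40.2 to 53.2), against 67 of 290 without a RefSeq entry of that symbol (23.1%, 18.6 to 28.3). RefSeq lists 17 of the 548 as protein-coding, 8 of them called, such as Ttc28, which had peaks in all 7 libraries. Genes with more than 1 annotated start were called in 53.4% of cases (44.4 to 62.3), against 28.7% (24.6 to 33.1) of those with 1.

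Peaks lay less tightly at lincRNA starts than at protein-coding ones. The median distance from peak centre to the nearest annotated start was 132.0 bases (ATAC5) to 162.8 bases (ATAC7), against 77.0 (ATAC4) to 89.5 (ATAC2) at protein-coding starts. Within 250 bases of the start lay 64.6% (ATAC4) to 73.3% (ATAC3) of the lincRNA peaks, against 85.7% to 88.6% of the protein-coding ones. In both classes the centres tended to lie upstream, in 59.8% to 70.8% of lincRNA genes. A peak within 1000 bases of a start can also be a nearby element that is not the promoter, and its part in the counts was not tested beyond the narrower window given with the alternatives.

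**Figure D5:**
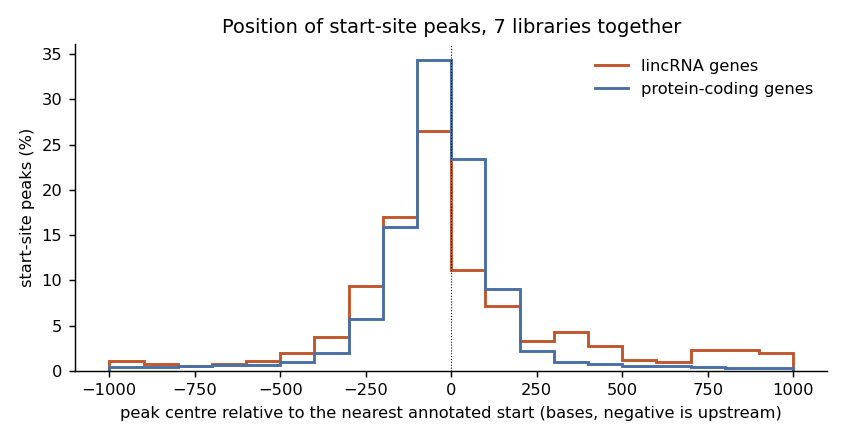
Position of the best start-site peak of each gene relative to the nearest annotated start (x axis, bases, negative is upstream, bins of 100) as the share of start-site peaks (y axis, percent), 7 libraries together. The tallest lincRNA bin, the 100 bases before the start, holds 26.5% of lincRNA peaks.

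Peaks at these lincRNA starts made up 0.610% (ATAC2) to 0.794% (ATAC4) of the peaks of a list on chromosomes 1 to 19. Other lincRNA genes, those within 2000 bases of a protein-coding start, could not be told apart from their neighbours and were called in 75.6% of 684 cases. At the distance limit, the genes just outside were 2210408F21Rik (1918 bases, called in 5 libraries) and 2210411M09Rik (1918 bases, not called), and those just inside were 9330159M07Rik (2131 bases, called in 7) and Gm17242 (2135 bases, not called).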

How the data were processed

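Bone marrow stromal cells were profiled by ATAC-seq in 7 libraries with 1 Input library, each title being its own group. The authors aligned reads to mm9 with bowtie and called peaks per library against Input with CisGenome in its two-sample mode, at a p-value limit of 1e-05 and an FDR under 0.01. Shifting of reads for the transposase and removal of duplicates are not given in the sources used here, and a missing shift of a few bases would be small beside the windows used. The deposited tables give, per peak, its rank, coordinates, counts of library and Input reads over an outer region, and the fold over Input, a ratio made by the authors as a scale factor times library reads over Input reads plus 0.01. The authors' caller also wrote 2 signal columns, which were not used beyond the rank. Total reads per library are not given in these tables. Median reads per peak were 111 (ATAC2) to 169 (ATAC3), and the scale factor in the fold was 1.01 (ATAC3) to 1.71 (ATAC5). How far either follows depth was not tested, and the read counts given here are not scaled between libraries.

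Peak centres were matched to the transcript starts of GENCODE vM1 on NCBIM37, and no peak reached beyond a chromosome end. The best-ranked peak represented a gene in a library. With 1 library per title no test was made, and shares have 95% Wilson intervals. Medians of fold leave out peaks with 0 Input reads. RefSeq entries (assembly GRCm38.p6) were matched by symbol, 258 of 548, for gene types only. The lincRNA genes, gene lists and comparisons were chosen with earlier results of these data known, and the rule for named genes took the 10 called in all 7 libraries with the best mean rank percentile, the best-ranked gene called in each library alone, the 3 best called in exactly ATAC2, ATAC5 and ATAC6, the described long noncoding RNAs and the genes nearest the distance limit. All other genes named, such as hosts of small RNAs, pairs with a shared peak, near copies and Gm17721, were chosen after their values were seen. Similar stretches were sought with blastn 2.17.0. Python 3.11.15, pandas 2.3.3, numpy 2.4.6, matplotlib 3.10.9 and scipy 1.17.1 were used. On simulated data, 100 of 100 peaks planted within 1000 bases of starts of the 548 lincRNA genes were recovered. The matching rule accepts every such peak by definition, so this checks the matching step only and not the calling of peaks. Alternatives were the best 15188 peaks of each list, a fold of at least 5, a window of 500 bases, any overlap with the window, the gene's 5′ end as only start, a distance of 5000 bases, genes with more than 1 exon, and isolated protein-coding genes. Added after seeing the data were sets without starts inside protein-coding genes, without RefSeq protein-coding genes and pseudogenes, without near copies, and with 1 start only.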

Additional observations from a re-analysis of the deposited data

How the results depend on the processing

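No paired analysis was possible because no title had more than 1 library, and for the same reason no replicate could be left out. The protein-coding share was higher than the lincRNA share in 84 of 84 pairs of library and alternative, of which the 7 for genes with more than 1 exon repeat the values as reported. The median over libraries of the lincRNA share, 24.1%, was 17.5% at equal peak number, 19% at a fold of at least 5, 31.3% with starts outside protein-coding genes and 19% for genes with 1 start site. The protein-coding median, 49.6%, was 44.1% at equal peak number, 42.0% at a fold of at least 5, 48.3% within 500 bases, 46.9% with the gene's 5′ end as only start, 44.0% for protein-coding genes over 2000 bases from other protein-coding starts and 30.9% for genes with 1 start site. The 73 genes called in all 7 libraries became 47 at a fold of at least 5 and 42 with 1 start site, the last among 432 genes (9.72%, beside 13.3% of the 548). The median rank percentile, 39.6, was 32 at equal peak number, where weaker peaks are removed by construction, and the median fold, 7.99, was 9.25 at a fold of at least 5. The remaining 48 values moved by less than their 95% interval or, for counts, by no more than 1.5 times, a bound that the 186 genes called in at least 1 library reached with 124 for genes with 1 start site; the cause of the differences was not tested. Restricting to genes with more than 1 exon changed nothing, since all had more than 1. Absence from a list is limited by depth and by the caller, and the precision of each share by the number of genes only.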
